A study of Homo sapiens with 6 samples.

Results

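The genes described here are 42 genes of the sarcomere and of muscle differentiation, among 35580 genes with a symbol or identifier in the joined tables. They were chosen by name: motor, thin filament, troponin, tropomyosin, Z-disc, fusion and acetylcholine receptor genes, read from each table after transcripts had been assigned to genes. Of the 42, 33 passed the filter on low counts and were tested among 15223 genes, and 9 did not. All 6 libraries were messenger RNA of Rh30, an established line of alveolar rhabdomyosarcoma, a tumour with features of immature skeletal muscle, and per the labels Rh30 is positive for the PAX3-FOXO1 fusion. There were 3 libraries labelled control and 3 labelled siDDX5, in which DDX5, an RNA helicase, had been knocked down, and the study's design text calls the 3 of each group biological replicates. How the control cells were treated, and how long after the knockdown RNA was taken, is not given in the sources used here. All libraries come from a single line, so other tumours or normal muscle were not sampled. In bulk RNA, fewer cells that express a gene and less of its RNA per cell cannot be told apart.

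A sarcomere is the contractile unit of striated muscle, in which thick filaments of myosin slide along thin filaments of actin. Troponin and tropomyosin on the thin filament make this sliding depend on calcium, titin and nebulin span the filaments, and alpha-actinin anchors them at the Z-disc. Muscle precursors first fuse, with the help of myomaker and myomixer, and use embryonic, slow and cardiac isoforms before adult fast ones. Rhabdomyosarcoma cells carry myogenic regulators such as MYOD1 and MYOG but rarely complete this programme.

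The libraries held 18202402 to 26156858 estimated counts, more in each control than in any siDDX5 library. Levels are given in TPM, an estimate of transcript abundance scaled for length and library total; the gene symbols TPM1 to TPM4 stand for tropomyosins. Messenger RNA of DDX5 was at 1660, 1690 and 1340 TPM in the controls and at 795, 520 and 450 in siDDX5, with no overlap, so the target matched the labels. Its log2 fold change was -1.44 (standard error 0.15, edgeR quasi-likelihood adjusted p 0.0106). Without control replicate 1 the adjusted p was 0.0953, without siDDX5 replicate 1 it was 0.0653, and without siDDX5 replicate 2 it was 0.0531. Of the 6 markers of the skeletal myogenic line, all were measured above the filter, with DES, MYOD1, MYOG and CDH15 at 444, 136, 111 and 129 TPM on average. Of 8 cardiac markers, 3 were tested, and MYH6, MYL7, MYL2 and MYL3 were each under 0.1 TPM on average. The most abundant was NPPB, and the 8 summed to 14.1 to 123 TPM in the controls and 46.2 to 175 in siDDX5.

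Levels between genes were compared in TPM, and differences between libraries in CPM, counts scaled to a common library total. The 42 genes spanned a wide range: 11 averaged over 100 TPM, 10 lay between 10 and 100, 10 between 1 and 10, and 11 under 1. Among actins and troponins, the most abundant members were cardiac and slow forms. ACTC1, cardiac alpha-actin, averaged 839 ± 353 in the controls and 946 ± 219 in siDDX5 (SD, n = 3 each). TNNT2, cardiac troponin T, averaged 840 ± 127 and 886 ± 14.2, and TNNI1, slow troponin I, 449 ± 173 and 410 ± 81.2 (SD, n = 3 each). Their skeletal and fast counterparts were lower. ACTA1, skeletal alpha-actin, averaged 0.417 over the 6 libraries, so the level of ACTC1 was 2140 times as high. Over the same libraries the level of TNNI1 was 190 times that of fast TNNI2, and the level of slow and cardiac TNNC1 was 15.7 times that of fast TNNC2. Among the myosin heavy chains the most abundant was instead embryonic MYH3, at 5.12. Slow and cardiac MYH7 averaged 0.111, and adult MYH1 and MYH2 averaged 0.00213 and 0.0291. MYH7, MYH1 and MYH2 rested on at most 22 counts in any library. Among the light chains, embryonic and atrial MYL4 averaged 25.5, skeletal MYL1 15.3 and fast MYLPF 3.41.

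**Figure D1:**
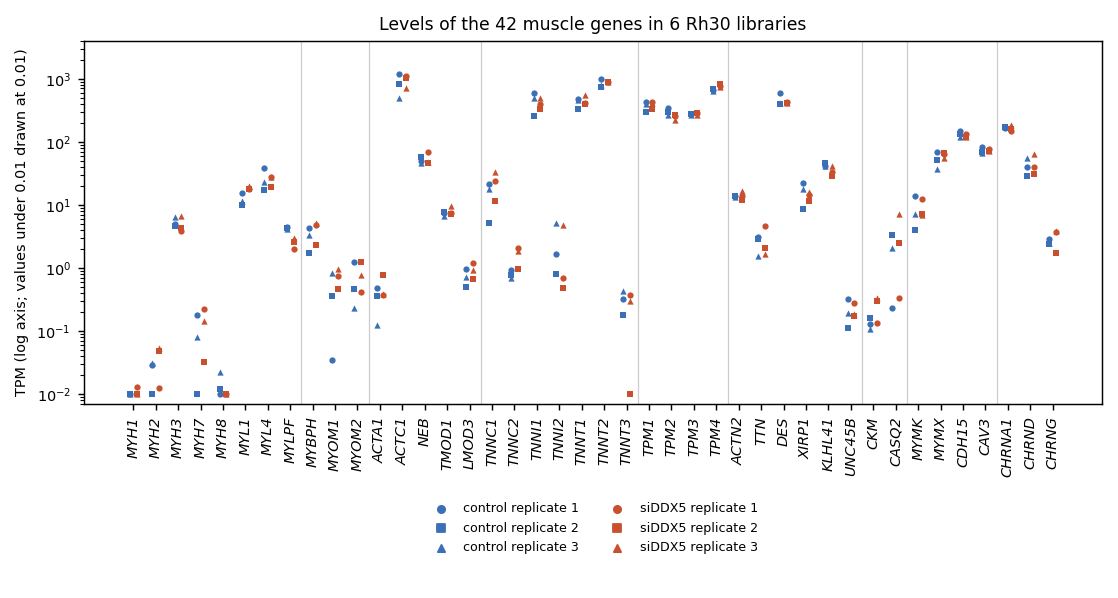
Level of each of the 42 genes in TPM (log axis) in each library; colour gives the group, marker shape the replicate number, and vertical lines separate roles. ACTC1 and TNNT2 lie near the top, while MYH1, MYH2 and MYH8 lie at or under 0.1 in every library, and the colours are mixed for most genes.

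The 9 genes that were not tested were the adult and perinatal motors MYH1, MYH2 and MYH8, the M-band proteins MYOM1 and MYOM2, ACTA1, the fast troponins TNNC2 and TNNT3, and muscle creatine kinase CKM. None exceeded 16 estimated counts in any library, and the highest of their mean levels was 1.21 TPM. A floor of 3 counts corresponded to 0.115 to 0.165 CPM. With no filter on low counts these genes could be tested, and none was called. TNNC2 was higher in every siDDX5 library, at 0.350, 0.324 and 0.289 CPM in the controls and 0.790, 0.379 and 0.715 in siDDX5, from 7 to 16 counts a library (edgeR adjusted p 0.587 with no filter, unadjusted 0.0476). MYH8 was at 0 in all siDDX5 libraries and at no more than 2 counts in the controls, so its groups could not be told apart at this depth.

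Whether DDX5 knockdown came with a difference in the muscle genes was asked first. None of the 33 tested genes was called at an adjusted p under 0.05 by edgeR (background 0.164% of all genes). The DESeq2 Wald test called none of the 23 members to which it gave an adjusted p. It gave none for the other 10, MYL1 and MYLPF among them. The background was 2.12% of all 15223 genes, those without an adjusted p included. Limma on log2 TPM called none of 31 members, 30 of the 33 and TNNC2, and only 1 of all genes (background 0.00672%). At an unadjusted p under 0.05 there were 2 members by edgeR, MYL1 and MYLPF (background 11.4%), 1 by DESeq2 (10.8%), and 3 by limma with a pseudocount of 1 (8.55%) or 0.1 (8.41%). With the replicate number as a block, 0 of 33 were called (background 2.59%, of which 1.14% higher and 1.45% lower), and 7 had an unadjusted p under 0.05 (background 20.5%). The median log2 fold change was 0.04 with 21 genes above 0 and 12 below, against a median of -0.00 and 49.6% above 0 for all genes. Without control replicate 1 the median over the members tested was 0.22. The 95% interval of the log2 fold change lay within 1 on either side of 0 for 26 of the 33, so a larger difference than that was outside the interval for those genes.

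**Figure D2:**
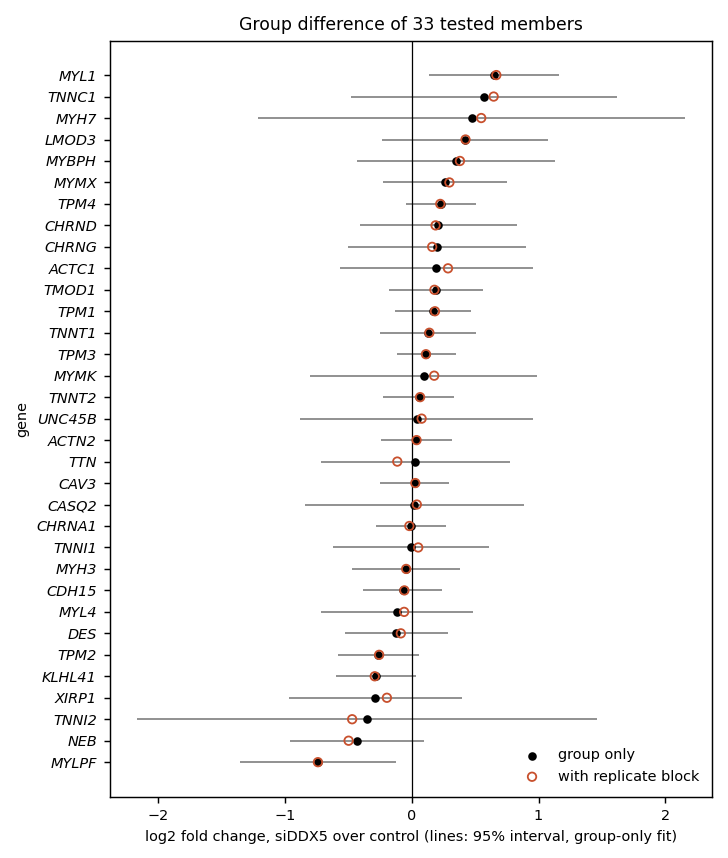
Log2 fold change of siDDX5 over control for the 33 tested genes (filled points, with 95% intervals) and the same with a term for the replicate number (open circles). The filled points run from -0.74 for MYLPF to 0.65 for MYL1, and the intervals of 31 genes include 0.

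In 3 of the 33 genes the groups did not overlap in CPM (background 18%, of which 8.87% higher and 9.16% lower in siDDX5): MYL1 and TPM4 were higher in every siDDX5 library, and MYLPF was lower. MYL1 encodes an essential light chain of skeletal myosin. It was at 5.56, 3.38 and 3.67 CPM in the controls and at 5.83, 7.04 and 6.99 in siDDX5. The lowest siDDX5 library lay just above control replicate 1, and the log2 fold change was 0.65 (standard error 0.23, 95% interval 0.14 to 1.16, edgeR adjusted p 0.324, 0.129 with the block). MYLPF, the regulatory light chain of fast skeletal myosin, was at 1.40, 1.25 and 1.24 CPM in the controls and at 0.741, 0.704 and 0.880 in siDDX5. These values rest on 13 to 36 counts a library, and the log2 fold change was -0.74 (standard error 0.27, edgeR adjusted p 0.345, 0.186 with the block). These 2 skeletal light chains thus differed in opposite directions, neither past the threshold.

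MYL4, the embryonic and atrial essential light chain, was the most abundant of the thick filament group and showed no such separation. It was at 15.4, 6.99 and 9.03 CPM in the controls and at 9.93, 8.34 and 10.8 in siDDX5. Control replicate 1 stood highest and control replicate 2 lowest, and the log2 fold change of -0.12 became 0.28 without control replicate 1. MYH3, the embryonic myosin heavy chain, was the only tested motor above 1 TPM, at 3.91 to 6.63 in all libraries.

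The tropomyosins coil along actin and were all abundant. TPM4, mainly a non-muscle isoform, was at 918, 958 and 848 CPM in the controls and at 1010, 1215 and 971 in siDDX5. Its groups did not overlap, with a log2 fold change of 0.23 (standard error 0.12, edgeR adjusted p 0.514, 0.243 with the block). TPM2 gave -0.26 (adjusted p 0.526 by edgeR), TPM1 0.17 (adjusted p 0.673) and TPM3 0.12 (adjusted p 0.722). The 4 genes differed from each other in direction, since TPM2 was lower within each of the 3 replicate numbers and TPM1 and TPM4 were higher within each.

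NEB, nebulin, the giant protein that runs along the thin filament, differed in sign between scales. In CPM it was at 304, 360 and 296 in the controls and at 344, 162 and 206 in siDDX5, with a log2 fold change of -0.43 (standard error 0.24, edgeR adjusted p 0.526). In TPM it was at 49.5, 57.1 and 46.8 against 67.7, 46.3 and 48.2, and the log2 fold change from counts made from length-scaled TPM was 0.12. The low values of siDDX5 replicates 2 and 3 lay in the longest form, NEB-203 of 26202 bases, at 4.56 and 7.70 TPM against 13.4 to 16.8 in the other libraries. TTN, titin, was highest in siDDX5 replicate 1 and, like NEB, lowest in siDDX5 replicates 2 and 3, at 53.3, 47.3 and 41.1 CPM in the controls and 81.9, 29.8 and 32.3 in siDDX5. Over the 303 tested genes with a mean transcript length over 8000 bases, the median deviation from the gene mean on the log2 scale was -0.01, 0.03 and 0.12 in control replicates 1 to 3 and 0.15, -0.25 and -0.05 in siDDX5 replicates 1 to 3. It was thus lowest in siDDX5 replicate 2, near 0 in siDDX5 replicate 3, and above 0 in control replicate 3, where TTN was the lowest of the controls. The part of this length trend in the NEB and TTN values was not tested.

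The fusion proteins MYMK (myomaker) and MYMX (myomixer) were both present. MYMX was at 29.6, 22.3 and 15.3 CPM in the controls and at 26.1, 30.8 and 23.7 in siDDX5, a log2 fold change of 0.26 (standard error 0.22, edgeR adjusted p 0.697). MYMK was at 5.44, 1.62 and 2.76 against 4.64, 2.98 and 2.92, a log2 fold change of 0.10 (standard error 0.40, edgeR adjusted p 0.956). The groups overlapped for both, and replicate 1 was the highest library for MYMK in either group. CDH15, M-cadherin of myoblasts, and DES, desmin of the intermediate filaments, had log2 fold changes of -0.07 and -0.12, and both turned positive without control replicate 1, to 0.09 and 0.15.

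How far same-numbered libraries moved together was asked next. The 2 groups each carry replicates 1 to 3, so the spread of a gene over the 6 libraries can be divided into a part between groups, a part between numbers and a remainder. For the 33 genes the median shares of the sum of squares of log2 CPM were 6.73% for the group, 57% for the number and 27.3% for the remainder. For all tested genes they were 18.4%, 45.5% and 19.7%. The share of the number exceeded that of the group in 27 of the 33 genes (81.8%), against 67.2% of all genes. These shares are descriptions, and the number has 2 degrees of freedom against 1 for the group. The order of the 3 numbers was the same in both groups in 7 of the 33 genes (21.2%), against 28% of all genes. By that measure the 33 genes did not follow the number more than other genes did.

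**Figure D3:**
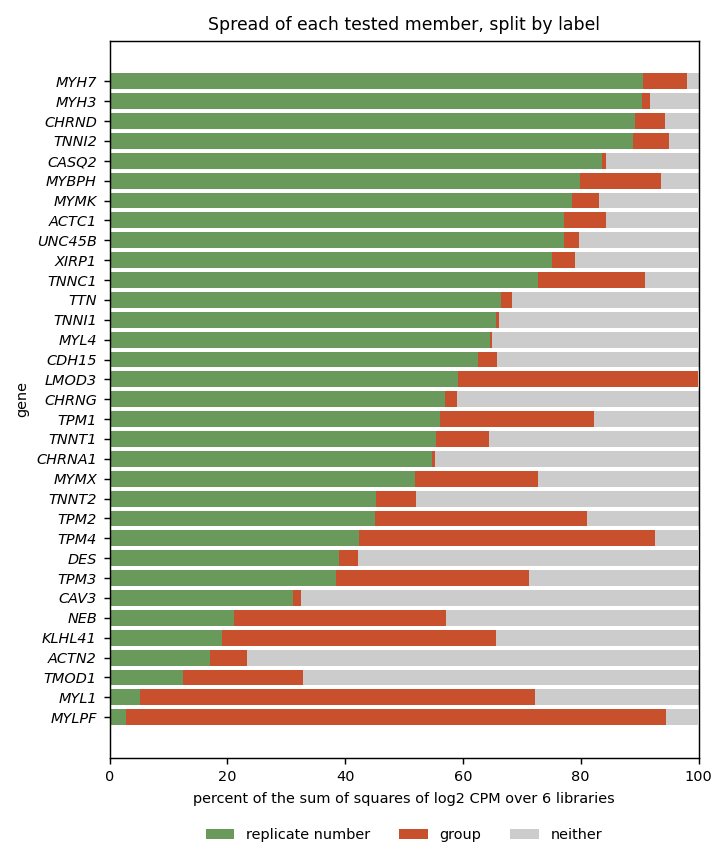
Percent of each tested gene's sum of squares of log2 CPM over the 6 libraries that lies between replicate numbers (green), between groups (red) or in neither (grey), sorted by the first. MYH7, MYH3 and CHRND lie at the top with about 90% between numbers, and MYLPF at the bottom with 91.7% between groups.

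A difference between replicate numbers was called in 5 of the 33 genes (background 3.44%), with 12 of 33 at an unadjusted p under 0.05 (background 21%). CHRND, the delta subunit of the muscle acetylcholine receptor, had the smallest p. It was at 85.1, 61.1 and 113 CPM in control replicates 1 to 3 and at 80.3, 74.1 and 146 in siDDX5. Replicate 3 was the highest and replicate 2 the lowest in both groups, 0.93 apart on the log2 scale (edgeR adjusted p 0.0111 over the 3 numbers). Its gene lies at chr2:232525993-232536667 on the plus strand of GRCh38. CHRNA1, the alpha subunit, did not share this order. It was at 194, 199 and 195 CPM in the controls and at 162, 206 and 216 in siDDX5, with an adjusted p of 0.482 by edgeR for the number.

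TNNC1, troponin C of slow and cardiac muscle, was at 9.10, 2.13 and 7.22 CPM in the controls and at 9.29, 5.09 and 13.2 in siDDX5. Replicate 2 was the lowest in both groups (edgeR adjusted p 0.0332). TNNI2, fast troponin I, was at 0.700, 0.324 and 1.90 against 0.247, 0.217 and 1.87, so replicate 3 stood above the others in both groups (edgeR adjusted p 0.0211). TNNI2 rests on 4 to 46 counts a library. Averaged over the groups, all 5 tested troponins were lower in replicate 2 than in replicate 1, as were 78.8% of the 33 genes and 51.5% of all genes. Within siDDX5 this did not hold for TNNT1 and TNNT2, which were at 238 and 604 CPM in replicate 1 and at 247 and 613 in replicate 2. Nor did it hold there for ACTC1, DES, CDH15, CAV3, MYMX, MYL1 and TPM2, also lower in replicate 2 on the average. Over the 33 genes, the median log2 deviation from the gene mean fell from 0.20 to -0.16 between control replicates 1 and 2. The drop between the same numbers of siDDX5 was smaller, from 0.02 to -0.08, so the averaged share of 78.8% was not equally a feature of both groups.

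ACTC1 had another order. It was at 1176, 672 and 406 CPM in the controls and at 949, 1045 and 585 in siDDX5, so replicate 3 was the lowest in both groups (edgeR adjusted p 0.0457). MYH7, the slow and cardiac myosin heavy chain, was at 0.856, 0.0463 and 0.371 CPM in the controls and at 0.988, 0.162 and 0.660 in siDDX5 (edgeR adjusted p 0.0486). Replicate 2 was the lowest in both groups, but these values rest on 1 to 22 counts a library. CHRND was called in each of the 12 alternatives run, with and without single libraries. The count of genes called was 3 with DESeq2 size factors (2.79% of all genes) and 2 with transcripts joined through the primary assembly alone (2.11%), and CHRND and TNNI2 were called in both. With DESeq2 size factors the edgeR adjusted p of MYH7 and ACTC1 was 0.0554 and 0.0566. With length-scaled TPM, CHRND and TTN were called, and TNNI2 was not (edgeR adjusted p 0.0585). The DESeq2 likelihood ratio test gave TNNI2 no adjusted p.

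The highest and lowest values lay in several libraries. Control replicate 1 held the highest value in 12 of the 33 genes (36.4%, against 19.1% of all genes) and siDDX5 replicate 3 in 8 (24.2%, against 15.3%). Control replicate 2 held the lowest value in 15 of the 33, against 2349 of all 15223 genes. Replicate 2 was the lowest in both groups in 11 (33.3%, against 16.8%). The median deviation from the gene mean on the log2 scale was 0.20, -0.16 and -0.11 in control replicates 1 to 3 and 0.02, -0.08 and 0.14 in siDDX5 replicates 1 to 3, while the same medians over all genes lay between -0.01 and 0.01. Within replicate number 1 the median siDDX5 minus control difference was -0.18, and within numbers 2 and 3 it was 0.25 and 0.15. Thus 13, 23 and 25 of the 33 genes were higher in siDDX5 within numbers 1, 2 and 3. Over all genes the shares were 50.4%, 50.1% and 50.4%. All 3 differences had the same sign in 10 of 33 (30.3%), against 42.9% of all genes.

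**Figure D4:**
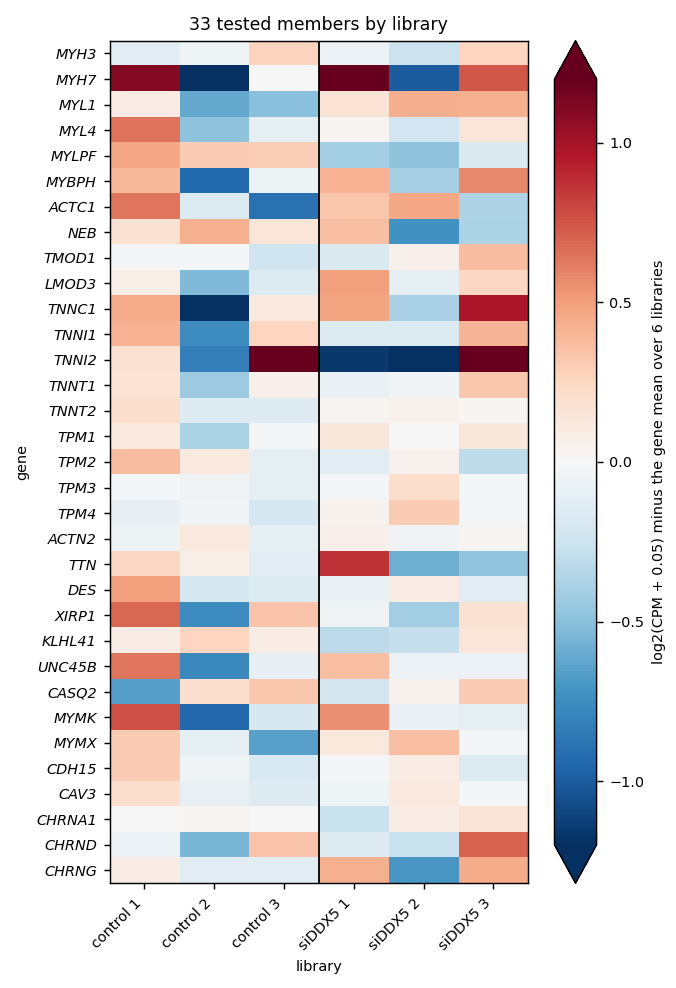
Deviation of log2(CPM + 0.05) from each gene's mean over the 6 libraries (colour, clipped at 1.2), genes in rows by role and libraries in columns, controls left of the line. Control replicate 2 is blue in most rows, MYH7 and TNNC1 among them, and MYL1 and MYLPF are the rows that split most plainly at the line.

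Values of other genes that moved with the number stand beside this. Of 6 tested myogenic regulators, 3 were called for the replicate number (background 3.44% of all genes). These were MYOD1 (edgeR adjusted p 0.0452), MYF5 (0.0125) and MEF2C (0.0058). MYOG, the regulator of terminal differentiation, was at 199, 78.7 and 131 CPM in the controls and at 124, 83.4 and 150 in siDDX5, lowest in replicate 2 of both groups (edgeR adjusted p 0.051). MYOD1 went another way, highest in replicate 2 of both groups, at 206, 223 and 150 against 179, 226 and 147. NPPB, a natriuretic peptide among the 8 cardiac markers, was at 24.3, 4.44 and 45.9 against 21.2, 18.6 and 66.4. Of the 3 cardiac markers tested, NPPB alone was called for the number (edgeR adjusted p 0.0253). The summed cardiac markers ran from 14.1 to 123 TPM in the controls and from 46.2 to 175 in siDDX5, mostly NPPB. Those of fibroblasts ran from 38.5 to 54.7 and from 44.6 to 60.9, and those of smooth muscle from 81.9 to 109 and from 88.2 to 108. The part of these genes in the differences between numbers was not tested.

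The promoters of the genes with the smallest p for the replicate number are printed here because these genes differed most by number, though not in the same order: replicate 3 was above replicate 1 in CHRND and below it in ACTC1. Of the 42 genes, 26 matched an entry of RefSeq promoters (GRCh38.p14, 250 bases before to 50 after the start). Shown are the 100 bases before the start for each gene with an entry and an unadjusted p under 0.01, 5′ to 3′ on the strand of the gene. Capitals mark E-boxes (CANNTG, read the same on both strands), the motif that MYOD1 and MYOG bind. The genes were picked after their values were seen.
CHRND: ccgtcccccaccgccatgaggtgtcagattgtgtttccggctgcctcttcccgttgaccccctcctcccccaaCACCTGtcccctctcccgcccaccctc
ACTC1: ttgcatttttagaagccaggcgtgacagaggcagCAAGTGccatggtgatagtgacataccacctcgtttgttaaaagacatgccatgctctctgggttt
MYBPH: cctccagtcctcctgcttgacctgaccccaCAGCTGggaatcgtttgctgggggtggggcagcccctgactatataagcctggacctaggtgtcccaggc
XIRP1: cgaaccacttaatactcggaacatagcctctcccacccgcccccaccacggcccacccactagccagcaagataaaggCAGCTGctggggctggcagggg
TTN: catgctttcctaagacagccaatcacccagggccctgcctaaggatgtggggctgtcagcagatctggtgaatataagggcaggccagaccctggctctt

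The window of CHRND lies at chr2:232526060-232526159 on the plus strand, and those of ACTC1 at chr15:34794118-34794217, MYBPH at chr1:203175827-203175926, XIRP1 at chr3:39192596-39192695 and TTN at chr2:178807424-178807523 on the minus strand. The RefSeq starts lay 1 to 67 bases from the start of the most abundant transcript of each gene, 67 for ACTC1. An E-box stood in the shown window of 4 of the 5. Over the whole 300-base promoters it stood in 24 of 26 members (92.3%), against 73.1% of 27305 genes. For this and the motifs below, a gene counted when any of its promoter entries held the motif. The number of entries per gene was not compared between members and all genes. The form CAGCTG, one case of CANNTG, stood in 13 of 26 (50%), against 21.1%. CTAAAAATA, a motif of MEF2 factors searched on both strands, stood in 3 (11.5%, against 0.637%), and the CArG box of serum response factor in 4 (15.4%, against 1.6%). These are counts of letters in a window, with no measurement of binding in these data.

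Which form of each gene was used was asked last, since troponin T and the tropomyosins have muscle and non-muscle forms. Of the 33 tested genes, 24 had at least 2 transcripts above the filter, and usage differed between the groups in 2, TPM4 and TNNT2 (background 1.59% of 10704 genes; edgeR diffSpliceDGE with a Simes test per gene). TPM4 had an adjusted p of 0.0126 by edgeR, and 0.0157 with the block (background 1.21%). The transcript with the smallest p in both was TPM4-214, an annotated processed transcript of 2031 bases with 0 coding exons. It took 2.93%, 5.02% and 8.17% of the TPM4 counts in the controls and 11.7%, 17.4% and 17.6% in siDDX5. The groups did not overlap, with means of 5.37% ± 2.64 and 15.6% ± 3.38 (SD, n = 3 each). In TPM it was at 24, 43 and 63.6 against 110, 175 and 152. The main coding form TPM4-219 took 91.0%, 87.4% and 84.0% in the controls and 81.0%, 76.8% and 74.9% in siDDX5. In CPM TPM4-219 overlapped between the groups, at 835, 837 and 712 against 818, 933 and 727, so the non-overlap of the whole gene went with TPM4-214.

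TPM4-214 begins at a first exon of its own, chr19:16088711-16088849 on the plus strand of GRCh38, 139 bases long, inside the TPM4 gene at chr19:16067021-16103005. It then joins the exon at chr19:16089045-16089120 that TPM4-219 also holds, there after its exon 4 at chr19:16088027-16088097. The junctions, from GENCODE release 29, are shown because the reads over them are what tells these forms apart at this exon. Capitals mark the 15 bases before the junction and lower case the shared exon.
TPM4-214: CCTCGCCTCTGCCTGaaaatgtggtgacct
TPM4-219: GGAGGTGTCTGAACTaaaatgtggtgacct

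The first exon of TPM4-214 is also overlapped by TPM4-203, a retained-intron form, which took 0.0803% to 0.136% of the TPM4 counts. Shares are estimates of the authors' quantifier, which divides reads among overlapping forms, and the tables hold no error for that division. Without control replicate 1 the edgeR adjusted p for TPM4 was 0.294, and without siDDX5 replicate 1 it was 0.0512. In 4 of the 6 fits that left out 1 library, without control replicate 2 or any 1 siDDX5 library, the transcript with the smallest p was another, TPM4-217. This nonsense-mediated decay form was at 124, 0 and 97 counts in the controls and at 0 in all siDDX5 libraries, and did not pass the filter with all 6 libraries.

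**Figure D5:**
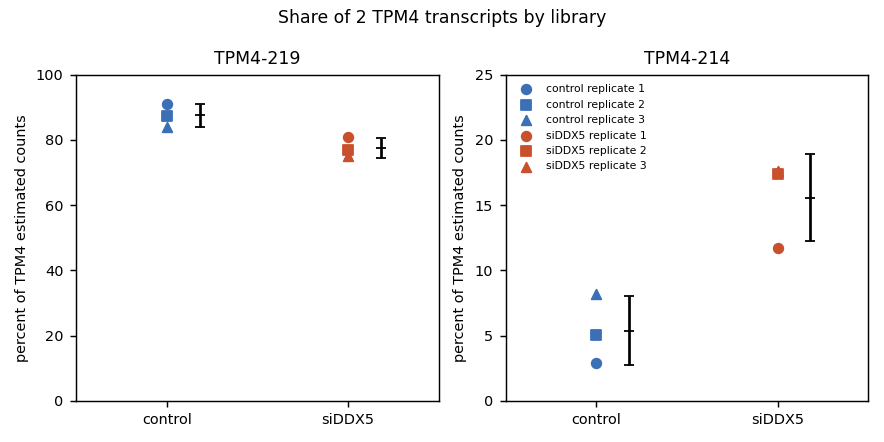
Percent of the TPM4 estimated counts assigned to TPM4-219 (left, axis from 0 to 100) and TPM4-214 (right, axis from 0 to 25) in each library, with the mean and SD of the 3 libraries in each group. TPM4-214 lies at 2.93% to 8.17% in the controls and at 11.7% to 17.6% in siDDX5.

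TNNT2, at chr1:201359008-201377762, was called through a rare form. TNNT2-209 was at 0 counts in all 3 controls and at 24, 17 and 9 counts in siDDX5, which was 0.197%, 0.154% and 0.0834% of the TNNT2 counts (edgeR adjusted p for the gene 0.00174, 0.00832 with the block). With a mean of at least 50 counts per transcript that form was not tested, and the adjusted p of TNNT2 by edgeR was 1. Without control replicate 3 it was 0.0594. The level of the whole gene was 984, 744 and 792 TPM in the controls and 899, 871 and 887 in siDDX5, a log2 fold change of 0.06 (edgeR adjusted p 0.902).

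Other muscle genes were counted by list. No gene was called between the groups in lists of 31 other sarcomere genes (18 tested), 14 excitation-contraction and calcium genes (8 tested), 6 neuromuscular synapse genes (5 tested), 11 genes of the dystrophin complex and membrane repair (10 tested), 9 muscle metabolism genes (5 tested) or 7 myogenic regulators (6 tested). At an unadjusted p under 0.05 by edgeR these lists held 4, 0, 1, 4, 1 and 1 genes (background 11.4%). In the same order their median log2 fold changes were 0.125, 0.029, -0.279, -0.03, 0.019 and -0.261. Of the genes tested, 12, 4, 1, 4, 3 and 0 lay above 0, against 49.6% of all genes. With the replicate block (background 1.45% lower and 1.14% higher), MEF2C and MEF2D, partners of MYOD1 on muscle promoters, fell by 0.44 and 0.54 on the log2 scale (edgeR adjusted p 0.0368 and 0.0182, and 0.592 and 0.118 without the block). MEF2D was at 43.4, 38.5 and 38.5 CPM in the controls and at 30.3, 26.4 and 26.2 in siDDX5, with no overlap, while those of MEF2C overlapped. In the dystrophin complex, also with the block, SGCB (beta-sarcoglycan) rose by 0.39, and SGCD (delta-sarcoglycan) and DAG1 (dystroglycan) fell by 0.61 and 0.45 (edgeR adjusted p 0.0492, 0.0136 and 0.0428, and 0.209, 0.143 and 0.359 without the block). The other 4 lists held no call with the block. Calls with the block rest on a pairing by replicate number that the labels do not state.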

How the data were processed

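Messenger RNA libraries of 3 control and 3 siDDX5 cultures were analysed; groups and replicate numbers came from the titles. Per the file headers, the authors deposited for every library an estimated count and a TPM value of each transcript. The submitters' processing notes name kallisto 0.46.0, cutadapt 1.11, FastQC 0.11.8, bcl2fastq 2.20 and GRCh38; the annotation, and whether strand was used, are not given in the sources used here. Deposited estimated counts were not normalised, and TPM values were scaled by the authors for length and library. Reads shared by near-identical genes, such as the myosin, actin and tropomyosin families, had been divided among them, so single members of these families are uncertain.

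The 188753 transcripts were joined to genes with GENCODE release 29: 169797 by identifier, 15291 by symbol, 890 by position between transcripts of 1 gene, and 2775 were left out. Joined transcripts held 99.59% to 99.63% of the counts. Estimated counts were summed per gene, rounded, filtered (filterByExpr), TMM-scaled and tested with glmQLFTest in edgeR 4.0.16 (R 4.3.3), with Benjamini-Hochberg adjustment over all genes at 0.05. Standard errors and 95% intervals come from that fit. Differences between replicate numbers were tested with 2 degrees of freedom beside the group. Usage was tested with diffSpliceDGE. CPM values use the TMM-scaled totals for genes. The labels do not say that same-numbered libraries were made together. Correlations of their deviations from the group means were 0.209, 0.269 and 0.577 over 15223 genes, and those of unlike numbers ran from -0.351 to 0.085. Deviations taken within a group are not independent. On these values the replicate number was used as a pairing and block, so calls with the block rest on a pairing taken from these same data. The biological coefficient of variation was 15.7% without and 10.2% with the block. The functions for the group, replicate-number and usage tests were tried on simulated counts.

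The members and gene lists were chosen with earlier results of these data known. Genes named by rule were those called, the most abundant of each role, the 3 largest and 3 smallest log2 fold changes, MYMK, MYMX and TPM1 to TPM4; other members with values were chosen after their values were seen. Alternatives were DESeq2 size factors, DESeq2 1.42.0 tests, other count filters, length-scaled TPM, limma 3.58.1 on log2(TPM + 1) and log2(TPM + 0.1), the block, the primary-assembly join and leaving out each library.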

Additional observations from a re-analysis of the deposited data

How the results depend on the processing

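No member was called between the groups in the 15 alternatives run, but several called almost no gene at all: 0 of all genes without control replicate 1 or siDDX5 replicate 1, 1 with each limma fit, 2 with length-scaled TPM and 3 to 15 without another library. DESeq2 gave no adjusted p for 10 members. The replicate block called 395 genes and changed no call of a member for group or usage. The median log2 fold change was 0.04, 0.07 with the replicate block, and 0.01 to 0.22 over the fits that left out 1 library. The count of 5 members called for the replicate number (3.44% of all genes) was 3 with DESeq2 size factors (2.79%), 2 with length-scaled TPM (1.23%), 2 with the primary-assembly join (2.11%) and 9 with no filter (2.98%), and 7 to 15 without 1 library (2.6% to 17.6%), where 1 number has a single library, assumed to vary like the others. When only transcripts averaging 50 counts or more were kept, usage was called in 1 member, TPM4 (0.55% of all genes tested for usage). Without 1 library, 1 to 2 members were called (2.01% to 4.11%), and these changed. TNNT2 and TPM1 were called without control replicate 1, NEB and TNNT2 without siDDX5 replicate 1, and TPM4 alone without control replicate 3. Both TNNT2 and TPM4 were called without control replicate 2, siDDX5 replicate 2 or siDDX5 replicate 3. DDX5 stayed lower throughout, at -1.37 with length-scaled TPM (adjusted p 0.0758), -1.44 with limma on log2(TPM + 1) (0.085) and -1.45 with log2(TPM + 0.1) (0.0928), and at -1.54 to -1.30 without 1 library.

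Signs turned in 20 of the 33 members, none at an adjusted p under 0.05, and the cause was not tested. Of the 12 named by rule, NEB was at 0.12 with length-scaled TPM, 0.063 with log2(TPM + 1) and 0.064 with log2(TPM + 0.1), and CHRNA1 at 0.002 with length-scaled TPM. Without 1 library, the lowest and highest values were -0.15 and 0.45 for CHRND, -2.04 and 0.55 for TNNI2, -0.10 and 0.68 for ACTC1, -0.091 and 1.48 for MYH7, -0.33 and 0.28 for MYL4, -0.006 and 0.19 for TNNT2, -0.24 and 0.15 for DES, -0.26 and 0.22 for CASQ2, -0.17 and 0.088 for CDH15, -0.079 and 0.11 for CHRNA1 and -0.22 and 0.68 for MYMK. The other 8 were ACTN2, CAV3, MYH3, TNNI1, TNNT1, TTN, UNC45B and XIRP1, with TTN at -0.11 and TNNI1 at 0.05 with the replicate block and ACTN2 at -0.15 with the primary-assembly join. The remaining 13 kept their sign in each alternative, TPM1 to TPM4, MYL1 and MYLPF among them. Depth limited the 9 genes under the filter and TNNI2, MYH7, CASQ2, LMOD3, UNC45B and MYLPF, all under 50 counts in each library.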

Other observations

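Genes of actomyosin outside muscle were counted beside the sarcomere genes. Of 11 listed genes, 10 were tested, none was called between the groups by edgeR (background 0.164%) or with the replicate block (background 2.59%), and 1 had an unadjusted p under 0.05. ACTG1, gamma-actin, the most abundant of them, was at 3220, 2180 and 2110 TPM in the controls and at 3360, 2520 and 2130 in siDDX5, overlapping between the groups. SMTN, smoothelin, listed as a smooth muscle marker, was at 57.8, 51.2 and 44.0 CPM in the controls and at 33.4, 37.0 and 28.2 in siDDX5, with no overlap, and fell by 0.63 on the log2 scale (edgeR adjusted p 0.13, 0.0135 with the block). The other 5 smooth muscle markers were not called in either fit.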
